A study of Mus musculus with 10 samples.

Results

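Kap, Acsm1, Acsm2, Acsm3, Acsm5, Odc1 and Gusb are genes that the proximal tubule of the mouse kidney expresses, and they are grouped here as hormone-dependent genes of that segment. They were chosen by symbol, 7 of the 43629 genes listed in the count table, and all 7 passed the filter on low counts. RNA was measured in the kidneys of male UM-HET3 mice at 4 months of age. UM-HET3 is an outcross of several inbred strains, so that littermates differ in genotype. The control group was 6 mice on the Purina 5LG6 diet. The rilmenidine group was 4 mice given the same diet with 10 ppm of the antihypertensive drug rilmenidine for 1 month from 3 months of age. No mouse of either group was female, castrated or given a hormone, so the comparison is between diets at the hormone levels of intact males, and those levels were not measured. The question was how abundant these genes are, whether they move together from kidney to kidney, and whether they differ with the drug.

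Testosterone enters the proximal tubule cell and, through a nuclear hormone receptor, raises the transcription of a set of target genes. The mouse kidney is known for this response. Kap (kidney androgen-regulated protein), Odc1 (ornithine decarboxylase, the first enzyme of polyamine synthesis) and Gusb (beta-glucuronidase, a lysosomal enzyme that removes glucuronic acid from glycans) are its textbook examples. The Acsm genes encode mitochondrial enzymes that join medium-chain fatty acids and aromatic acids such as benzoate to coenzyme A, the step before their oxidation or their conjugation with glycine.

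The start regions of Kap, Acsm2 and Odc1 are shown because Kap and Acsm2 were the most abundant of the 7 genes, and because Odc1 followed Kap most closely within the groups of kidneys although its start region is of another kind. Each run is the 250 bases before the RefSeq transcription start, on the strand of the gene (RefSeq, GRCm38.p6; Kap chr6:133853668-133853917, minus strand; Acsm2 chr7:119554090-119554339, plus strand; Odc1 chr12:17544623-17544872, plus strand). Capitals mark the letters TATAAA, and in Acsm2 also ATTAAC.
Kap: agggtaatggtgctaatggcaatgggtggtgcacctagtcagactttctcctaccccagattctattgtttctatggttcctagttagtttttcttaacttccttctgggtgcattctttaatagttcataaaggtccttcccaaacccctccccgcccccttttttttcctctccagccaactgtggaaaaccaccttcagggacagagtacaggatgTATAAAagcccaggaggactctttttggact
Acsm2: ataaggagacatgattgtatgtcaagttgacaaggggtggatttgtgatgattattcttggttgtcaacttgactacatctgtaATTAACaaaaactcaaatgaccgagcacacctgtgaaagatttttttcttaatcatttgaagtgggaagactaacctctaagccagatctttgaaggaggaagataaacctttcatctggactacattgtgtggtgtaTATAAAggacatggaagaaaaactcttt
Odc1: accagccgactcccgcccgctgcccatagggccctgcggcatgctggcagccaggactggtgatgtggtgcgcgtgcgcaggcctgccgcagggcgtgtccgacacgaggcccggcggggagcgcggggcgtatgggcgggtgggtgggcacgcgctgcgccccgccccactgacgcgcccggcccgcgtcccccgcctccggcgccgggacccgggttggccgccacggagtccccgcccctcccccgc
All 7 genes had an entry in the RefSeq table of 32851 windows, each from 250 bases before to 50 after a start, and Acsm2 had entries for 2 starts. The letters TATAAA, the core of a TATA box, were looked for on the strand of the gene and stand in 8.32% of the windows. Among the 7 genes they were found in Kap, from base −31, and at the first start of Acsm2, from base −28. The androgen response half-site (TGTTCT or its complement AGAACA, either strand, 19.0% of windows) was found at the first start of Acsm2 alone, from base 14 after the start. The full palindrome of both half-sites with 3 bases between them, occurs in 0.00913% of windows and in none of these genes. The half-site of the hepatocyte nuclear factor HNF1 (GTTAAT or ATTAAC, either strand, 7.1% of windows) was found at the first start of Acsm2, from base −166. The Odc1 window was 78.0% G and C and held 42 CpG dinucleotides, more G and C than 98.1% of all windows. The Kap window was 44.7% G and C with 1 CpG and that of Acsm2 38.3% with 1 CpG, where the medians of all windows were 52.7% and 7. The absence of a motif here says only that these letters are not in this window. The RefSeq start lies inside the annotated gene span given below by 10786 bases for Acsm1, 6802 for Acsm5, 95 for Kap and 79 for Odc1. The windows of Acsm1 and Acsm5 therefore do not cover the annotated 5′ ends of these genes.

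Kap (ENSMUSG00000032758) lies on chromosome 6 of GRCm38, from 133849851 to 133853762 on the minus strand. Odc1 (ENSMUSG00000011179) lies on chromosome 12 from 17544794 to 17551505 and Gusb (ENSMUSG00000025534) on chromosome 5 from 129989011 to 130003049. The 4 Acsm genes stand in a row on the plus strand of chromosome 7, within 268.1 kb. In genomic order they are Acsm5 (ENSMUSG00000030972; 119519463 to 119545551), Acsm2 (ENSMUSG00000030945; 119554340 to 119600690), Acsm1 (ENSMUSG00000033533; 119607026 to 119662515) and Acsm3 (ENSMUSG00000030935; 119760923 to 119787513). A further member, Acsm4, stands between Acsm1 and Acsm3 and had 0 to 1 counts in any library, too few to be tested. The Acsm genes are related in sequence, and reads that fit more than 1 of them could have been divided or dropped by the counting. Acsm3 also overlaps Eri2 on the other strand, which had 6 to 35 counts in each library, and Acsm5 overlaps Pdilt on the other strand, which had 1 to 12. The small nucleolar RNA gene Gm22748 lies within Odc1 on its strand and had 0 to 6 counts. Acsm1 overlaps the antisense genes Gm19950 and Gm45792, which were not used here. Whether the counting used strand is not given in the sources used here.

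The libraries held 863605 to 3232063 counts, with 14491 to 22848 genes detected. All 12 proximal tubule markers passed the filter, from Slc5a2, a glucose transporter, with 3 to 20 counts per library to Slc34a1, the sodium-phosphate cotransporter, with 5478 to 20224 (both named after their values were seen). Of 6 liver genes only albumin (Alb, 0 to 20 counts) passed the filter, although part of the extraction text in the labels speaks of liver. Levels are given as normalized CPM, counts divided by library size after scaling by relative log expression (RLE). Olfactory and vomeronasal receptor genes took 51.7 to 436 CPM in 7 libraries (controls 1 to 5, rilmenidine 1 and 2) and 4.27 to 8.99 CPM in the other 3 (control 6, rilmenidine 3 and 4). The nuclear RNA Malat1 had 1200 to 2209 CPM in controls 1, 3, 4 and 5 and 284 to 390 CPM in the other 6 libraries.

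Kap was the most abundant of the 10055 genes tested. It had 39169 ± 5429 normalized CPM (SD, n = 6) in control kidneys, ahead of the mitochondrial mt-Nd4 at 25975, Gm10800 at 24318 and mt-Cytb at 20799. In control kidneys 1 to 6 it had 31432, 36876, 46303, 40672, 43616 and 36114 CPM. In rilmenidine kidneys 1 to 4 it had 41762, 36551, 59589 and 49145. The highest kidney, rilmenidine 3, and the next, rilmenidine 4, are both treated and are the most deeply sequenced libraries, and the groups overlapped. As a share of all counts in a library, Kap made up from 3.24% (95% Wilson interval 3.206 to 3.28, control 1) to 5.6% (5.574 to 5.625, rilmenidine 3). These intervals cover counting error only and are far narrower than the spread between kidneys.

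Acsm2 followed with 7030 ± 499 CPM (SD, n = 6), the 9th gene by level. Its levels were 6954, 6365, 7628, 7575, 7005 and 6651 CPM in control kidneys 1 to 6, and 6817, 5216, 7417 and 7782 in rilmenidine kidneys 1 to 4. Rilmenidine 2 is the lowest, and the other kidneys lie between 6365 and 7782. Odc1 had 346 ± 127 CPM and Acsm1 328 ± 87.6 CPM (SD, n = 6 each), a difference much smaller than the spread of either gene. Gusb had 158 ± 69.8 CPM (SD, n = 6), and its highest control kidney lay above the lowest one of Acsm1. Acsm5, at 69.0 ± 5.88 CPM (SD, n = 6), lay below Gusb in all 6 control kidneys. Acsm3 was the lowest at 15.0 ± 12.1 CPM (SD, n = 6), with 2 to 44 raw counts per library.

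Divided by the length of the longest annotated transcript, the control level of Kap was 55401 CPM per kilobase, again the highest of the 10020 genes with a length. Acsm2 had 1043 CPM per kilobase and was 62nd. Acsm1 had 158 and Odc1 157 CPM per kilobase, followed by Gusb with 58.8, Acsm5 with 23.1 and Acsm3 with 4.55. The libraries capture the 3′ end of each transcript, so that counts need not grow with length, and both scales are given for that reason.

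**Figure D1:**
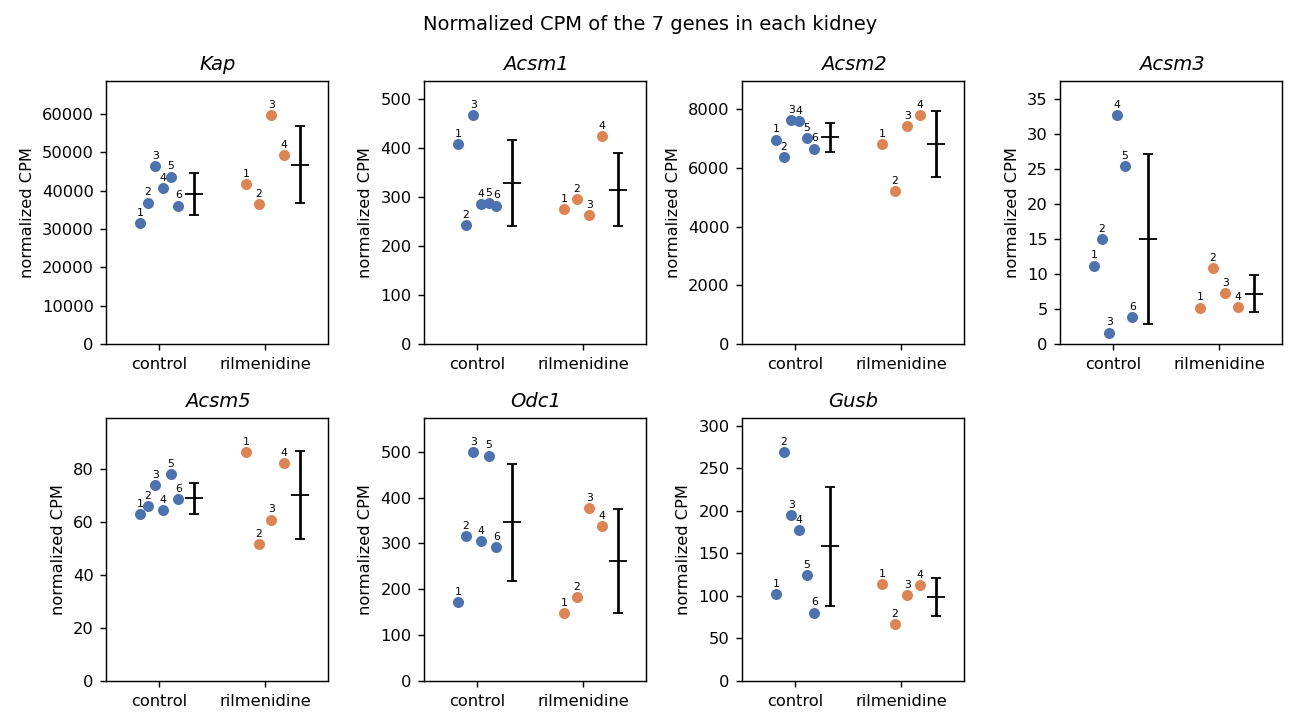
Normalized CPM (vertical axes, from 0, a scale for each gene) of the 7 genes in each kidney, control in blue and rilmenidine in orange, numbered by replicate; the bar beside the points is the mean ± SD (n = 6 and n = 4). The groups overlap for every gene, and Acsm3 in control kidneys spans 1.66 to 32.7 CPM.

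With rilmenidine, 0 of the 7 genes passed an adjusted p-value of 0.05, as did 0 of the 10055 genes tested (0%) in edgeR's quasi-likelihood test. DESeq2 called 60 and edgeR's likelihood ratio test 44 of all genes, none of them among the 7. In the quasi-likelihood test 1 of the 7 genes, Gusb, had an unadjusted p-value under 0.05, where 1061 of all genes (10.6%) had one, 6.13% being lower and 4.43% higher with the drug. Groups that do not overlap were found for 0 of the 7 genes and for 1.67% of all genes. Kap and Acsm5 had fold changes above 0 and the other 5 genes below, and the median was −0.056 beside 0.0021 for all genes. In bulk tissue a smaller number of proximal tubule cells and less RNA per cell cannot be told apart.

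Gusb had 102, 269, 195, 178, 124 and 80.3 CPM in control kidneys 1 to 6 and 114, 66.8, 101 and 113 in rilmenidine kidneys 1 to 4. Controls 2, 3, 4 and 5 stand above every treated kidney, whereas controls 1 and 6 lie among the treated ones. The log2 fold change was −0.68 (SE 0.272, 95% interval −1.25 to −0.10), with an unadjusted p of 0.0240 and an adjusted p of 0.388 (edgeR quasi-likelihood test, Benjamini-Hochberg). It was −0.45 (adjusted p 0.415 in edgeR) without control 2, the kidney with the highest Gusb and the highest receptor gene CPM of the controls. It was −0.53 (adjusted p 0.4635 in edgeR) without rilmenidine 2. With the looser filter of at least 1 count in any library, 27565 genes, Gusb passed the threshold with a log2 fold change of −0.67 and an adjusted p of 0.00686 in edgeR, as did 241 genes in all.

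Odc1 had 172, 316, 500, 305, 492 and 292 CPM in control kidneys 1 to 6 and 148, 182, 377 and 338 in rilmenidine kidneys 1 to 4. Controls 3 and 5 are the highest, and control 1 sits with rilmenidine 1 and 2 below all others. Odc1 thus differed by −0.40 on the log2 scale (SE 0.284, 95% interval −1.003 to 0.20), with an adjusted p of 0.648 (edgeR quasi-likelihood test, Benjamini-Hochberg). Within the 7 libraries rich in receptor gene counts, 5 control and 2 rilmenidine, it was −1.12 with an adjusted p of 0.318 in edgeR. A covariate of log2 library size gave −0.94 (adjusted p 0.976 in edgeR). The Odc1 difference was smaller with log2 Malat1 as a covariate, at −0.21. That covariate is partly tied to treatment, since only control libraries were high in Malat1. The Odc1 difference was also smaller without single kidneys, at −0.21 without rilmenidine 1, −0.26 without rilmenidine 2 and −0.27 without control 3 or without control 5.

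Kap differed by 0.26 on the log2 scale (SE 0.184, 95% interval −0.13 to 0.65), with an adjusted p of 0.659 (edgeR quasi-likelihood test, Benjamini-Hochberg). The difference was 0.12 without rilmenidine 3 and −0.022 within the 7 libraries rich in receptor gene counts, which leave out both of the highest treated kidneys. Kap and Odc1, both textbook androgen targets, thus had fold changes of opposite sign in the fit to all 10 kidneys, neither past the threshold. With 10 kidneys a change in Kap above 0.65 or below −0.13 lay outside the 95% interval.

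Acsm1, which had 407, 242, 466, 285, 287 and 282 CPM in control kidneys 1 to 6, had 275, 296, 264 and 424 in rilmenidine kidneys 1 to 4. Controls 1 and 3 and rilmenidine 4 stand above the other 7 kidneys, which lie between 242 and 296. The log2 fold change was −0.056 (95% interval −0.45 to 0.34). For Acsm2 it was −0.046 (95% interval −0.37 to 0.27) and for Acsm5 0.024 (95% interval −0.30 to 0.35), where the Acsm5 levels ran from 62.9 to 78.1 CPM in control and from 51.6 to 86.4 CPM in rilmenidine kidneys. The signs of these 3 changed with single kidneys left out. Acsm3, counted 2 to 44 times per library, had 11.2, 15.0, 1.66, 32.7, 25.4 and 3.90 CPM in control kidneys and 5.22, 10.9, 7.35 and 5.31 in rilmenidine kidneys. Its treated kidneys all lie inside the range of the controls. The log2 fold change of −1.07 (95% interval −2.22 to 0.084) had an adjusted p of 0.507 (edgeR quasi-likelihood test, Benjamini-Hochberg), and was −0.15 with log2 Malat1 as a covariate.

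**Figure D2:**
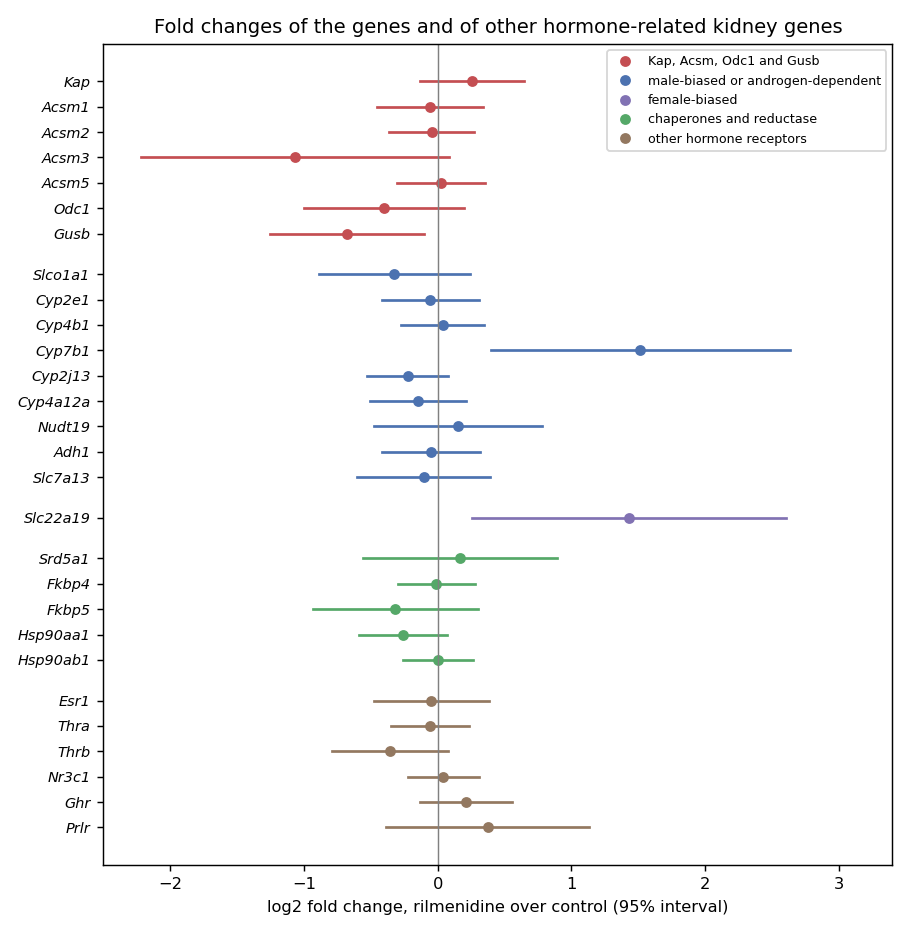
Log2 fold change of rilmenidine over control (points) with its 95% interval (lines) from edgeR's quasi-likelihood fit, for the 7 genes and the tested genes of 4 hormone-related lists. The intervals of Gusb, Cyp7b1 and Slc22a19 do not cross 0, and no gene passed the adjusted threshold.

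The genes differed in how far they varied between kidneys. The coefficient of variation in control kidneys was 7.11% for Acsm2, 8.52% for Acsm5, 13.9% for Kap, 26.7% for Acsm1, 36.7% for Odc1, 44.2% for Gusb and 81.1% for Acsm3. From the lowest to the highest of the 10 kidneys, Acsm2 spanned 1.49-fold, Acsm5 1.68-fold, Kap 1.90-fold, Acsm1 1.93-fold, Odc1 3.38-fold, Gusb 4.03-fold and Acsm3 19.7-fold. The biological coefficient of variation that edgeR estimated within groups was 0.538 for Acsm3, 0.316 for Odc1, 0.295 for Gusb, 0.243 for Kap, 0.222 for Acsm1, 0.209 for Acsm2 and 0.169 for Acsm5, where the median of all genes was 0.199. Among the genes nearest in mean level (100 on each side, or as many as there were above Kap and Acsm2), Acsm3 varied more than 98.5%, Gusb more than 97.5%, Odc1 more than 97.0% and Acsm1 more than 93.0%. Kap varied more than 83.0%, Acsm2 more than 58.7% and Acsm5 more than 46.0% of such neighbours. The coefficient of variation and the fold span of Acsm3 include the counting error of its few reads, which edgeR's estimate sets apart.

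Whether the 7 genes rose and fell together was tested over the 10 kidneys on log2 CPM. Of the 21 pairs, 15 had a Pearson's r above 0 and the median r was 0.20, but 0 pairs passed an adjusted p of 0.05 by permutation, and 0 had an unadjusted p under 0.05. Acsm2 and Acsm5, neighbours on chromosome 7, had the highest r at 0.585 (Spearman's rho 0.345), which was −0.14 without rilmenidine 2 and 4. That r was 0.101 without rilmenidine 2 alone and 0.515 without rilmenidine 4 alone, so it rested mainly on rilmenidine 2. Kap and Acsm2 had r = 0.537 (permutation p = 0.116, adjusted p 0.645) and rho = 0.697 (permutation p = 0.0308, adjusted p 0.323), and r was 0.760 without control 1 and rilmenidine 3. Acsm3 had an r below 0 with 5 of the other 6 genes, the lowest being −0.49 with Acsm1.

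Kap and Odc1 did not pass over all 10 kidneys, and passed in an alternative in which the difference between the groups was taken out. Over all 10 kidneys r was 0.565 (permutation p = 0.0874, adjusted p 0.645) and rho 0.697 (permutation p = 0.0304, adjusted p 0.323), with r = 0.456 without control 1 and rilmenidine 3. After the mean of its group was subtracted from each kidney, r was 0.898 (permutation p = 0.00088, adjusted p 0.0185 over 21 pairs) and rho 0.952 (permutation p = 0.00012, adjusted p 0.00252), the 1 pair to pass. The permutation treats the 10 centred values as free of each other, which the subtraction of 2 means makes slightly untrue. The adjustment over 21 pairs does not cover the choice among the alternatives. In the 6 control kidneys alone r was 0.953 (exact permutation p = 0.00694, adjusted p 0.146) and rho 0.943 (adjusted p 0.350), and 0 of the 21 pairs passed. Acsm5 had r = 0.884 with Odc1 (exact permutation p = 0.0236, adjusted p 0.248) and 0.777 with Kap in the same 6 kidneys. In the 4 rilmenidine kidneys the r of Kap and Odc1 was 0.86. Control 1 was lowest for both genes among controls, and controls 3 and 5 were the 2 highest for both. Rilmenidine 3 and 4 were the 2 highest treated kidneys for both genes, with less Odc1 than controls 3 and 5 at more Kap.

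Leaving out each kidney in turn gave a within-group r of 0.868 to 0.930, and the adjusted p rose to 0.0687 without control 1 and to 0.0523 without control 3 by exact permutation. Within the 7 libraries rich in receptor gene counts r was 0.853 (exact permutation p = 0.0204, adjusted p 0.350). The level of Kap had r = 0.573 with log2 library size over the 10 kidneys (permutation p = 0.0814, adjusted p 0.570 over the 7 genes), r = 0.242 without the 2 kidneys farthest from the median and r = 0.125 in control kidneys. For Odc1 the r with log2 library size was 0.181 (permutation p = 0.614).

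**Figure D3:**
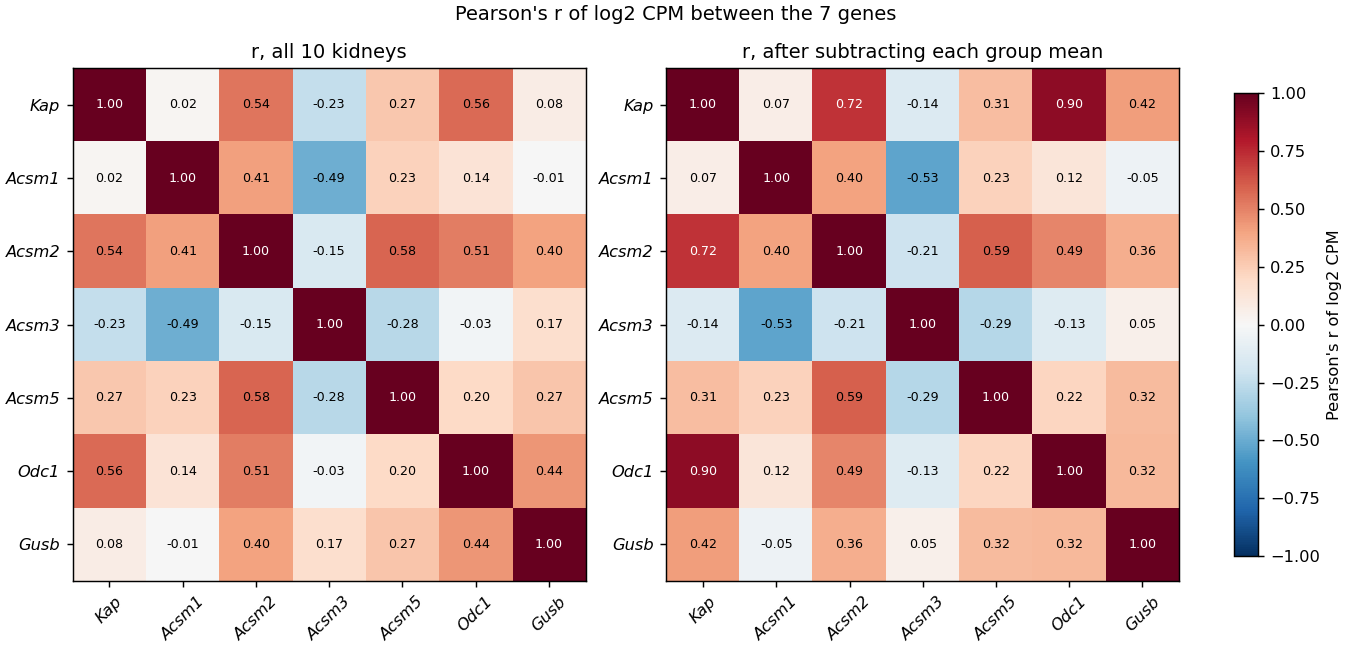
Pearson's r of log2 CPM for each pair of the 7 genes (rows and columns, colour from −1 in blue to 1 in red), over all 10 kidneys on the left and after each group's mean was subtracted on the right. Kap and Odc1 reach 0.90 on the right, and Acsm3 is blue or near white throughout.

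Set against Kap, whose reads are the most precisely counted, 3 genes had an unadjusted permutation p under 0.05 and 0 passed after correction. All 3 ratios share Kap as denominator, and ratios to Kap were not computed for the other genes tested. No share over all genes can therefore stand beside this count. Per 1000 Kap reads, Odc1 had 5.46, 8.56, 10.8, 7.51, 11.3 and 8.09 reads in control kidneys 1 to 6 and 3.54, 4.99, 6.33 and 6.87 in rilmenidine kidneys 1 to 4. Except for control 1, every control kidney lies above every treated kidney. The difference in log2 ratio was −0.67 (two-sided exact permutation p = 0.0381). Acsm2 had 161 to 221 reads per 1000 Kap reads in control and 124 to 163 in rilmenidine kidneys, a difference of −0.30 in log2 ratio (two-sided exact permutation p = 0.0143). Acsm2 itself differed by −0.046 on the log2 scale and Kap by 0.26. The Kap difference was smaller without rilmenidine 3 and of opposite sign within the 7 libraries rich in receptor gene counts. For Gusb over Kap the difference was −0.83 (two-sided exact permutation p = 0.0286). Over the 21 ratios among the 7 genes the adjusted p was 0.267 for each of these 3, so that 0 passed, and no p under 0.00476 is possible with 210 splits.

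The genes most like each of the 7 were found by Pearson's r over the 10 kidneys among 5801 other genes with a mean of at least 20 CPM. These are descriptions, since the highest of many r is always high. For Kap they were Tmigd1 (r = 0.943, rho 0.915), which encodes an adhesion protein of epithelial brush borders, Glb1l2 (0.903) and Cmas (0.903), the enzyme that activates sialic acid. For Odc1 they were Stat6 (0.937), a transcription factor of interleukin signalling, the splicing kinase gene Srpk1 (0.930) and Cyp4a12a (0.924). For Acsm1 they were Tbl1xr1 (0.927), Rdh16 (0.896) and Rdh16f2 (0.876), the last 2 being related retinol dehydrogenase genes. For Acsm2 they were Dek (0.908), Ssx2ip (0.897) and Kif5b (0.893), and for Acsm5 Tmem174 (0.888), Slc35c1 (0.872) and Srp72 (0.869). For Acsm3 they were Gfm2 (0.952), Cxadr (0.884) and Tulp3 (0.876), and for Gusb Cdk5 (0.923), Mef2a (0.866) and 1600012H06Rik (0.856). In control kidneys alone the r of Kap with Tmigd1 was 0.947, whereas that of Acsm5 with Tmem174 was 0.214.

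Of 9 further male-biased or androgen-dependent kidney genes, all 9 were tested, 0 passed the adjusted threshold and 1 had an unadjusted p under 0.05 (10.6% of all genes). Their median log2 fold change was −0.058, and 3 of the 9 were above 0. Cyp7b1, an oxysterol and steroid hydroxylase, was that 1 gene. It had 35.9, 25.8, 80.5, 38.6, 28.9 and 16.8 CPM in control kidneys and 9.86, 51.0, 210 and 141 in rilmenidine kidneys. The 2 highest are rilmenidine 3 and 4, the libraries with the lowest receptor gene CPM, and the lowest is rilmenidine 1. On the log2 scale the difference was 1.52 (SE 0.529, adjusted p 0.321 in edgeR's quasi-likelihood test) and −0.43 within the 7 libraries rich in receptor gene counts. The others were Slco1a1 (−0.33), an organic anion transporter, Cyp2j13 (−0.22), Cyp4a12a (−0.15), an arachidonic acid hydroxylase, Slc7a13 (−0.10), Cyp2e1 (−0.057), Adh1 (−0.049), Cyp4b1 (0.038) and Nudt19 (0.15).

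Of 3 female-biased genes, Slc7a12 (0 to 14 counts) and Cyp4a14 (2 to 50 counts) did not pass the filter. Slc22a19, an organic anion transporter, was tested and had 84.2, 53.9, 233, 87.7, 57.3 and 28.1 CPM in control kidneys and 31.3, 121, 429 and 370 in rilmenidine kidneys. The high kidneys, rilmenidine 3 and 4 and control 3, are those high in Cyp7b1. The difference was 1.43 on the log2 scale (SE 0.554, adjusted p 0.368 in edgeR's quasi-likelihood test), and −0.42 within the 7 libraries rich in receptor gene counts. Over the 10 kidneys Kap had r = 0.681 with Cyp7b1 and 0.687 with Slc22a19 (permutation p = 0.0303 and 0.0277, adjusted p 0.152 and 0.149 over 70 relations), and 0.066 and 0.143 within those 7 libraries. The r of Kap was higher with the male-biased Nudt19, at 0.711 (permutation p = 0.0212, adjusted p 0.135). With Nudt19 it was 0.742 in control kidneys and 0.663 within those 7 libraries.

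Each of the 7 genes was also set against 10 hormone genes (the male-biased genes and Slc22a19), 70 relations chosen after the values had been seen. By Pearson's r 1 passed, and by Spearman's rho 0. Odc1 and Cyp4a12a had r = 0.924 (permutation p = 0.00012, adjusted p 0.0084) and rho = 0.867 (permutation p = 0.00212, adjusted p 0.128), with r = 0.859 without the 2 kidneys farthest from the median. Cyp4a12a had 1368, 1693, 2006, 1826, 2152 and 1740 CPM in control kidneys and 1143, 1551, 1772 and 2019 in rilmenidine kidneys. As for Odc1, controls 3 and 5 were the highest controls, and control 1 and rilmenidine 1 the lowest of their groups. The r was 0.968 in control kidneys (exact permutation p = 0.0111), 0.945 within the 7 libraries rich in receptor gene counts (exact permutation p = 0.00179) and 0.906 to 0.944 with each kidney left out. The next were Odc1 with Slco1a1 (r = 0.849), Acsm2 with Cyp2j13 (0.844) and Acsm2 with Slco1a1 (0.804), with an adjusted p of 0.0642 each by permutation.

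**Figure D4:**
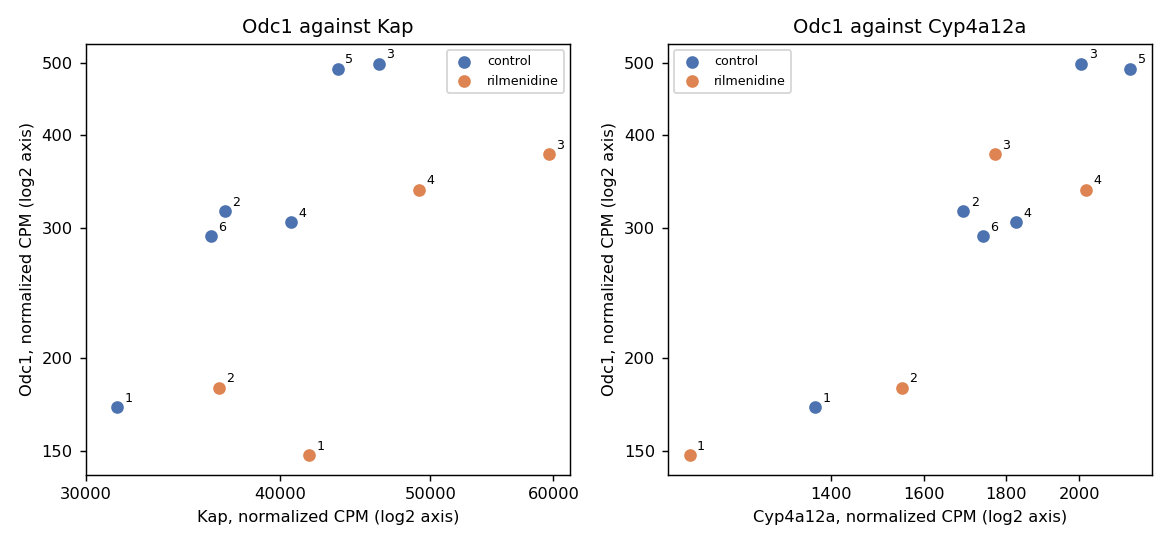
Odc1 against Kap (left) and against Cyp4a12a (right), normalized CPM of each kidney on log2 axes that do not start at 0, control in blue and rilmenidine in orange, numbered by replicate. On the left rilmenidine 1, 2 and 4 lie below the control kidneys nearest to them in Kap and rilmenidine 3 has more Kap than any control, and on the right the 10 kidneys lie along 1 line (r = 0.924).

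Of 7 genes for chaperones and cofactors of steroid receptors and for the enzymes that make dihydrotestosterone, 5 were tested, 0 passed, 0 had an unadjusted p under 0.05 in edgeR and the median log2 fold change was −0.011. The 5-alpha-reductase gene Srd5a1 differed by 0.17, the immunophilins Fkbp4 and Fkbp5 by −0.011 and −0.32, and the heat shock protein genes Hsp90aa1 and Hsp90ab1 by −0.26 and 0.00084. Srd5a2 (0 to 17 counts) and Ncoa4 (1 to 13 counts) did not pass the filter. Of 6 other hormone receptors 0 passed and 0 had an unadjusted p under 0.05, with Ghr, the growth hormone receptor, at 0.21, Prlr at 0.37, Nr3c1 at 0.041, Esr1 at −0.047, Thra at −0.056 and Thrb at −0.36.

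The pathways of the 3 enzyme groups were read from longer lists. Around Odc1, 8 of 11 genes of polyamine synthesis and turnover were tested and 0 had an unadjusted p under 0.05, with a median of −0.034. The largest were Sms, spermine synthase, at 0.35 (SE 0.242), and Oaz1, the antizyme that binds and inactivates ornithine decarboxylase, at 0.30 (SE 0.163). Around Gusb, 14 of 15 further lysosomal hydrolases acting on glycans were tested, and 12 were above 0. Their median was 0.086 beside 0.0021 for all genes, their smallest adjusted p was 0.689 in edgeR, and Gusb was at −0.68. In that list 0 had an unadjusted p under 0.05, and Idua, iduronidase, was at 0.32 (SE 0.246). Around the Acsm genes, 10 of 13 genes of acyl-CoA synthesis, glycine conjugation and medium-chain oxidation were tested and 9 were above 0, with a median of 0.13. In that list 1 had an unadjusted p under 0.05 in edgeR, where 10.6% of all genes had one. Acadm, the medium-chain acyl-CoA dehydrogenase, had 290 ± 41.5 CPM (SD, n = 6) in control and 415 ± 133 CPM (SD, n = 4) in rilmenidine kidneys. Rilmenidine 3 and 4 had 578 and 466 CPM of Acadm. Rilmenidine 1 and 2, at 324 and 291 CPM, lay within the control range of 254 to 349 CPM. The log2 fold change of Acadm was 0.52 (SE 0.176, adjusted p 0.313 in edgeR), and Hadh was at 0.27.

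Markers of the tubule segments and of other kidney cells were read in the same fit. All 12 proximal tubule markers were tested and 7 were above 0 with a median of 0.10. Their summed level was 14120 to 16160 CPM in control and 14630 to 16530 CPM in rilmenidine kidneys, and the groups overlapped. Miox, myo-inositol oxygenase, was the 1 with an unadjusted p under 0.05, at 0.39 (SE 0.183), and Slc5a12 was at −0.34. Summed levels of the thick ascending limb were 1294 to 1917 CPM in control and 1560 to 2515 CPM in rilmenidine kidneys. Umod, which lies 40.2 kb from the Acsm genes, was at 0.61 (SE 0.171, adjusted p 0.244 in edgeR). It makes up most of that sum, with a control mean of 1076 CPM beside 211 for Kcnj1. Of 4 thick ascending limb markers 3 were tested, with a median of 0.0825, and Kcnj1 was at 0.075. All 4 distal convoluted tubule markers were below 0, Trpm6 at −1.01 and Slc12a3 at −0.55, with a summed level of 755 to 1254 CPM in control and 592 to 988 CPM in rilmenidine kidneys. Of 5 collecting duct markers tested, 4 were above 0, with Aqp2 at 0.58 and Aqp3 at 0.34, and sums of 286 to 397 and 324 to 440 CPM. Podocyte markers summed to 44.3 to 71.4 and 47.5 to 78.2 CPM, endothelial markers to 93.0 to 184 and 137 to 187 CPM, and immune markers to 44.8 to 203 and 106 to 121 CPM. Liver markers summed to 3.37 to 24.6 and 11.0 to 19.6 CPM. In none of these lists did a gene pass the adjusted threshold, and the part of the segments in the levels of the 7 genes was not tested.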

How the data were processed

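Gene counts (reads per Ensembl identifier, not normalized) were deposited by the authors for 10 kidney libraries. Per the labels the build was mm10, and the submitters' processing notes name bcl2fastq 1.8.4, Trimmomatic 0.32, STAR 2.5.2b and featureCounts 1.5. Libraries followed a protocol that captures the 3′ end with molecular identifiers. How identifiers were handled, the annotation release and the strand setting are not given in the sources used here, so counts may include amplification copies. The methods name more control kidneys than the 6 analysed here.

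Groups and replicate numbers were taken from the labels, which call the samples biological replicates. Symbols and positions came from GENCODE M21 (GRCm38) and start regions from RefSeq. Of 43629 genes, 42462 had a symbol. The filter asked for 6 reads or more in 66.6% of samples, which left 10055 genes. These were scaled by RLE and tested with edgeR 4.0.16 under R 4.3.3, using the quasi-likelihood test without covariates, with Benjamini-Hochberg adjustment over all genes and a threshold of 0.05. CPM on a log2 scale used a prior count of 2. Correlations were tested by permutation (100000 resamples for 10 kidneys, exact for fewer) and ratios by two-sided exact permutation. Scripts were tested on simulated data: of 190 genes given a log2 change of 1.5 among 9798, 169 were called, beside 5 false calls.

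The 7 genes and the gene lists were chosen with earlier results of these data known. Some listed genes are not reported here. Named genes were the 7, every tested gene of the hormone lists, of each other list the genes with an unadjusted p under 0.05 or, if fewer than 2, the 2 with the smallest p, the 3 genes with the highest r for each of the 7, and overlapping genes. Alternatives were TMM, normalization without the 7 genes, filters of at least 1 count in any or 10 in every sample, DESeq2 1.42.0, the likelihood ratio test, covariates (log2 library size, log2 Malat1), a replicate block, the 7 libraries in which 1659 olfactory and vomeronasal receptor genes reached 10 CPM, a prior count of 0.5 and centring on group means for the correlations, and leaving out each kidney. Totals were 863605 to 3232063 counts, so that a gene such as Acsm3 was counted 2 to 44 times per library.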

Additional observations from a re-analysis of the deposited data

Results flagged for a closer look

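Among 56 groups of values over 28 genes (the 7 genes and the tested hormone genes, in control and in rilmenidine kidneys), 6 held a kidney far from the rest of its group by Dixon's test at the 95% level, where chance gives about 1 in 20. None of the 6 was a group of the 7 genes. Control 3 had 80.5 normalized CPM of Cyp7b1 where the other control kidneys had 16.8 to 38.6, and 233 CPM of Slc22a19 where the others had 28.1 to 87.7. Srd5a1 was high in control 1, at 38.2 CPM against 7.80 to 17.1, and in rilmenidine 1, at 31.3 CPM against 14.7 to 16.6. Fkbp5 was low in control 4, at 7.43 CPM against 22.4 to 31.2. Prlr was high in rilmenidine 2, at 16.3 CPM against 5.25 to 6.96.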

How the results depend on the processing

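The number of genes past the threshold was 0 and became 241 with every gene of at least 1 count kept, 60 with DESeq2, 44 with the likelihood ratio test, and 0 to 37 with a kidney left out (33 without control 2, 37 without control 6, 6 without rilmenidine 1). With genes of at least 1 count, 1 of the 7 genes passed, Gusb at −0.67, as did 1 male-biased, 2 female-biased and 1 thick ascending limb gene, and DESeq2 called 1 thick ascending limb gene. The number of pairs that passed was 1 after centring. Of the fold changes of the 7 genes under all alternatives, 125 kept their direction and their side of the threshold and 13 changed sign. The cause of these changes was not tested.

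Kap was at −0.022 within the 7 libraries rich in receptor gene counts. Acsm1 was at 0.14 with library size and 0.20 with Malat1 as a covariate, and ran from −0.23 to 0.072 with a kidney left out. Acsm2 was at 0.043 with Malat1 and ran from −0.12 to 0.063. Acsm5 was at −0.013 with library size and −0.0066 within the 7 libraries, and ran from −0.084 to 0.14. Odc1 kept its sign and ran from −0.63 to −0.21 with a kidney left out. The within-group r of Kap and Odc1 was 0.853 within the 7 libraries and 0.868 to 0.930 with a kidney left out.

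Other genes changed sign as well, and the Malat1 covariate is partly tied to treatment, since only control libraries were high in Malat1. With Malat1 as a covariate Slco1a1 was at 0.032, Adh1 at 0.017, Slc7a13 at 0.44, Hsp90ab1 at −0.050, Esr1 at 0.19, Oaz1 at −0.052, Kcnj1 at −0.12 and Alb at −0.29. With library size Cyp4b1 was at −0.055, Nudt19 at −0.31, Slc7a13 at 0.045, Hsp90ab1 at −0.12 and Kcnj1 at −0.11. Within the 7 libraries Cyp4b1 was at −0.096, Cyp7b1 at −0.43, Nudt19 at −0.56, Slc22a19 at −0.42, Hsp90ab1 at −0.032 and Ghr at −0.17. With at least 10 counts in every sample Hsp90ab1 was at −0.0040, and Acsm3 was not testable. With a kidney left out the ranges were −0.16 to 0.085 for Adh1, −0.17 to 0.061 for Cyp2e1, −0.073 to 0.12 for Cyp4b1, −0.031 to 0.20 for Emcn, −0.25 to 0.096 for Esr1, −0.11 to 0.080 for Fkbp4, −0.060 to 0.038 for Hsp90ab1, −0.024 to 0.078 for Nr3c1, −0.12 to 0.41 for Nudt19, −0.068 to 0.57 for Prlr, −0.26 to 0.039 for Slc7a13, −0.14 to 0.47 for Srd5a1 and −0.14 to 0.019 for Thra.

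The labels tie replicate numbers to no litter or day. The deviations of same-numbered kidneys from their group means correlated by 0.076, 0.078, −0.077 and −0.0070. No pairing by number is seen in these values, and a shared litter or day was not tested. With the replicate block over 8 kidneys 0 of 9793 genes passed (903 with an unadjusted p under 0.05), Gusb was at −0.87 with an adjusted p of 0.305, and Srd5a1 at −0.14. The block changed no call among the named genes. Of the 7 genes Acsm3 had the widest 95% interval (−2.22 to 0.084), the fewest counts and the largest biological coefficient of variation (0.538), and the parts of depth and of spread between kidneys in that width were not tested.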
